A study of Mus musculus with 2 samples.

Results

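The Mir26 family of the mouse consists of 3 microRNA genes, Mir26a-1, Mir26a-2 and Mir26b, and all 3 were among the 1973 genes counted in short RNA from embryonic liver. Members were the counted genes whose Ensembl identifier carries 1 of these symbols in the GENCODE annotation. The rule itself uses no measured value. The tissue was liver of healthy B6NCrl embryos at embryonic day 11.5, pooled over both sexes, with no treatment or mutation named in the labels. Replicate 1 came from a pool of 109 embryos and replicate 2 from a pool whose size the labels leave out. The labels call them biological replicates and give the same donor record for both. The labels therefore put both libraries in 1 group, and the data hold no comparison between conditions.

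A microRNA is cut from a hairpin precursor into a short mature strand, named 5p or 3p after the arm it comes from. It represses messenger RNAs that pair with its seed, bases 2 to 8. The miR-26 family is known as a brake on cell division. In human liver cancer cells miR-26a represses the cyclins D2 and E2, and in mouse myoblasts it represses Ezh2, a histone methyltransferase. The host genes Ctdspl, Ctdsp2 and Ctdsp1 encode small phosphatases of the RNA polymerase II tail, which are known for silencing neuronal genes outside the nervous system.

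The mature sequences show what a read can say about each gene, and are printed here 5′ to 3′ with the seed in capitals. They are RefSeq sequences on GRCm38.p6, and all 3 members matched.
miR-26a-5p (Mir26a-1 and Mir26a-2): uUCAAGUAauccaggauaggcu
miR-26b-5p (Mir26b): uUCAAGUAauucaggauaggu
miR-26a-1-3p (Mir26a-1): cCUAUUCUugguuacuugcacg
miR-26a-2-3p (Mir26a-2): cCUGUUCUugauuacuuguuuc
miR-26b-3p (Mir26b): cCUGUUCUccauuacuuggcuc
The 5p arms shared 1 seed, UCAAGUA, which no other gene among the 1679 RefSeq mature names searched carried. Both Mir26a genes give the identical 5p strand of 22 bases. Counted from the 5′ end of miR-26a-5p, miR-26b-5p differs by C11U and C21U and is 21 bases long. On the 3p side the family divided differently: miR-26a-2-3p and miR-26b-3p shared the seed CUGUUCU, while miR-26a-1-3p has the seed CUAUUCU. Within the seed, counted from the 5′ end and with the base of miR-26a-1-3p first, miR-26a-2-3p differs from it by A4G. The CUGUUCU seed also occurred in Mir6932 and Mir7039.

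The precursors differ around the shared strand. In the sequences of the Mir26a copies, capitals mark the longest run both contain, and in Mir26b they mark its 5p arm.
Mir26a-1, chr9:119031796-119031885, plus strand: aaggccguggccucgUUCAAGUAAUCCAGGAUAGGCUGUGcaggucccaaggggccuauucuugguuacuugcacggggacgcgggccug
Mir26a-2, chr10:126995530-126995613, plus strand: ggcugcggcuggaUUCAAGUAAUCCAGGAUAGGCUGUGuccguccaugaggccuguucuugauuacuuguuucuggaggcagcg
Mir26b, chr1:74394310-74394394, plus strand: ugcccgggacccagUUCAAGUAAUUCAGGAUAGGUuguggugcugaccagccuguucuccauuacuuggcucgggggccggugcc
The run common to Mir26a-1 and Mir26a-2 was 25 bases long. It began at the first base of miR-26a-5p in both and went 3 bases past its end. Of the windows of 22 bases, 4 of 69 in Mir26a-1 and 4 of 63 in Mir26a-2 were found in the other copy, and the window at the start of miR-26a-5p was among them. In Mir26b 0 of 64 windows occurred in another of the 1005 RefSeq precursors, and its longest run in common with a Mir26a precursor was 11 bases. A search of 141767 GENCODE M21 transcripts found miR-26a-5p in both Mir26a genes and each other strand in its own gene only. The genome outside these sequences was not searched.

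**Figure D1:**
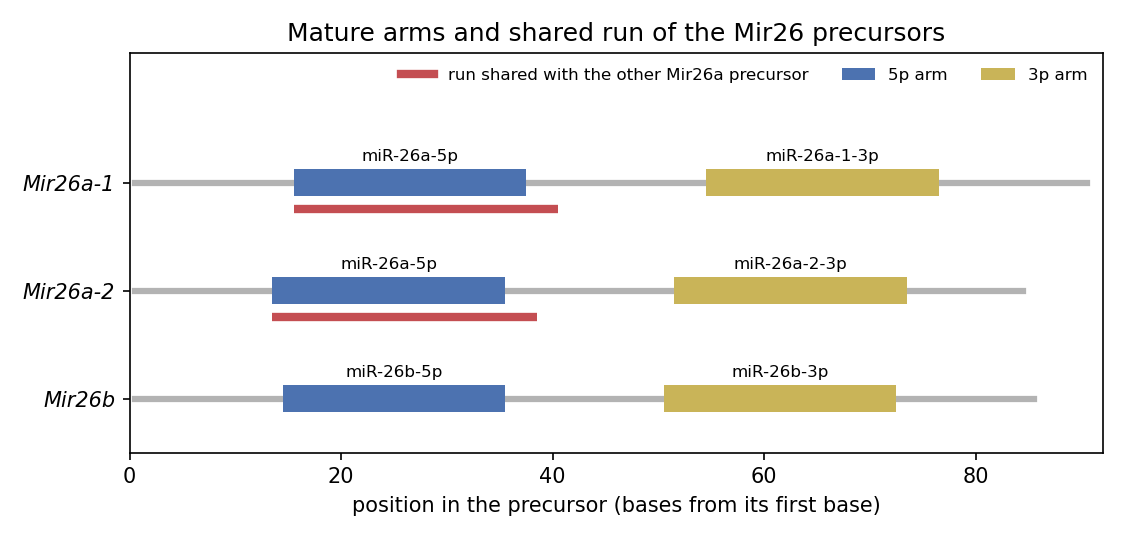
Position of the mature 5p and 3p arms (bars) along each precursor, in bases from its first base. The red line marks the run of 25 bases that Mir26a-1 and Mir26a-2 share, which covers the whole 5p arm of both and neither 3p arm; Mir26b has no such run.

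A read that lies within the shared run matches both Mir26a genes, and the deposited tables place reads that map to several places in a class of their own. The counts of Mir26a-1 and Mir26a-2 can therefore hold only reads that differ between the copies, such as the 3p strands or 5p strands with further bases at an end. The tables count genes and not arms, so which of these the counts hold was not tested.

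Sequencing gave 3344673 reads assigned to a gene on its own strand in replicate 1 and 1584499 in replicate 2. The class mapping to several places held 2804637 and 1234115 reads of all origins. Levels are counts per 1000000 assigned counts (CPM) on the strand of the gene, and intervals are 95% exact Clopper-Pearson intervals that cover counting error only. Each read covers 1 short mature strand, so levels were not divided by gene length. Markers of the labelled tissue were present, as were some of other cell types. The hepatocyte gene Mir122 had 30679 and 34487 CPM in replicates 1 and 2. Detected, at 10 or more counts in both libraries, were 4 of 6 listed liver genes and 347 of all 1973 counted genes. The liver genes not detected were Mir194-1 and Mir802, at means of 9.70 and 2.29 CPM. The same rule passed 5 of 5 mesenchymal, 2 of 2 erythroid, 3 of 4 leukocyte and 1 of 1 endothelial genes. It also passed 3 of 6 striated muscle and 2 of 7 neural genes, so detection alone does not single out liver. The endothelial Mir126a averaged 68747 CPM, above the 32583 CPM of Mir122. Mir451a led the erythroid list at a mean of 8644 CPM, and Mir223 the leukocyte list at 5010 CPM.

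Among uniquely placed reads, Mir26b was 1 of the most abundant microRNA genes of the day 11.5 liver, while both Mir26a copies were counted at very low levels. Genes whose reads map to several places can be counted too low, so ranks and shares hold for uniquely placed reads only. Mir26b (ENSMUSG00000065468.1), which gives miR-26b, had 76898 counts or 22991 CPM in replicate 1 (interval 22831 to 23152) and 35277 counts or 22264 CPM in replicate 2 (22035 to 22495). It ranked 10 in replicate 1 and 11 in replicate 2. Its mean of 22628 ± 514 CPM (SD, n = 2) is 2.26 ± 0.0514% of the assigned counts, rank 11 of 1973. The SD over the pools was 2.27% of the mean. In whole liver, how many cells hold a microRNA and how much each cell holds cannot be told apart.

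Mir26a-2 (ENSMUSG00000065430.1) had 157 counts or 46.9 CPM in replicate 1 (39.9 to 54.9) and 69 counts or 43.5 CPM in replicate 2 (33.9 to 55.1). It averaged 45.2 ± 2.40 CPM (SD, n = 2), rank 255. Mir26a-1 (ENSMUSG00000065513.1) had 59 counts or 17.6 CPM in replicate 1 (13.4 to 22.8) and 25 counts or 15.8 CPM in replicate 2 (10.2 to 23.3). It averaged 16.7 ± 1.32 CPM (SD, n = 2), rank 299. All 3 genes were above a floor set at 3 counts for a count of 0, which is 0.897 and 1.89 CPM in replicates 1 and 2. None had a read on the opposite strand in either library.

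**Figure D2:**
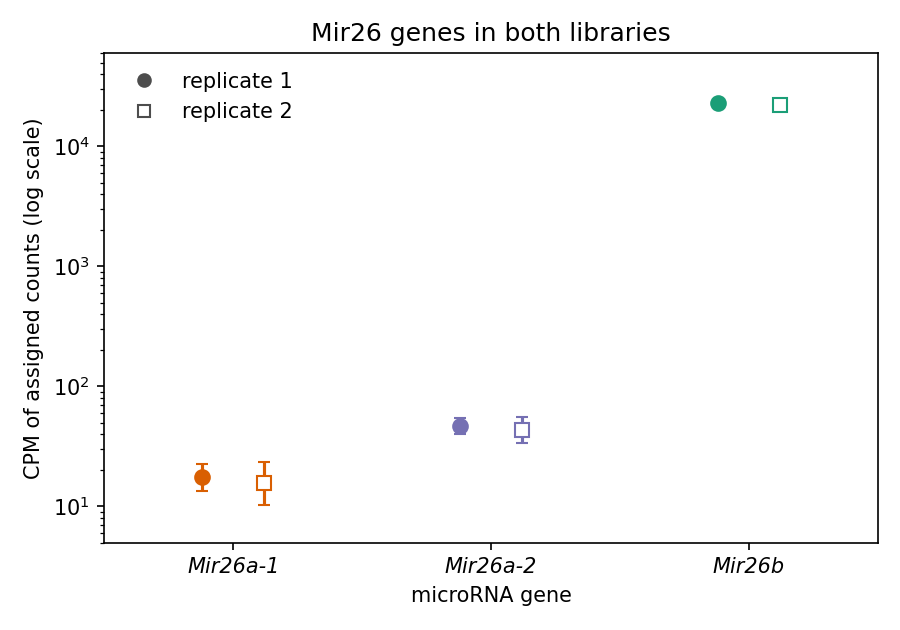
CPM of each Mir26 gene on a log axis in replicate 1 (filled circles) and replicate 2 (open squares), with 95% counting intervals. Mir26b lies at 22264 CPM or more in both libraries and the Mir26a copies at 46.9 CPM or less; the intervals of the 3 genes do not overlap.

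The order Mir26b, Mir26a-2, Mir26a-1 was the same in both libraries and no counting interval of neighbours in that order overlapped. Within the family, Mir26b held 99.7% of the counts in each library (99.68 to 99.76 in replicate 1, 99.67 to 99.79 in replicate 2). Its counts were 356 times those of both Mir26a copies together in replicate 1 and 375 times in replicate 2. These are ratios of reads with a single place in the genome. They are not ratios of miR-26b to miR-26a, because reads of the shared 5p strand are missing from the Mir26a counts. The class mapping to several places was 36.5 times the Mir26b count in replicate 1 and 35.0 times in replicate 2, so its size sets no useful upper limit on miR-26a.

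Between the copies, Mir26a-2 stood above Mir26a-1 in both pools. The ratio of their counts was 2.66 in replicate 1 and 2.76 in replicate 2. Mir26a-2 took 72.7% of the counts of both copies in replicate 1 (66.2 to 78.5) and 73.4% in replicate 2 (63.3 to 82.0). The intervals of the libraries overlap and neither reaches equal shares. This split describes the uniquely placed reads only and does not show which copy gives more of the shared 5p strand.

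**Figure D3:**
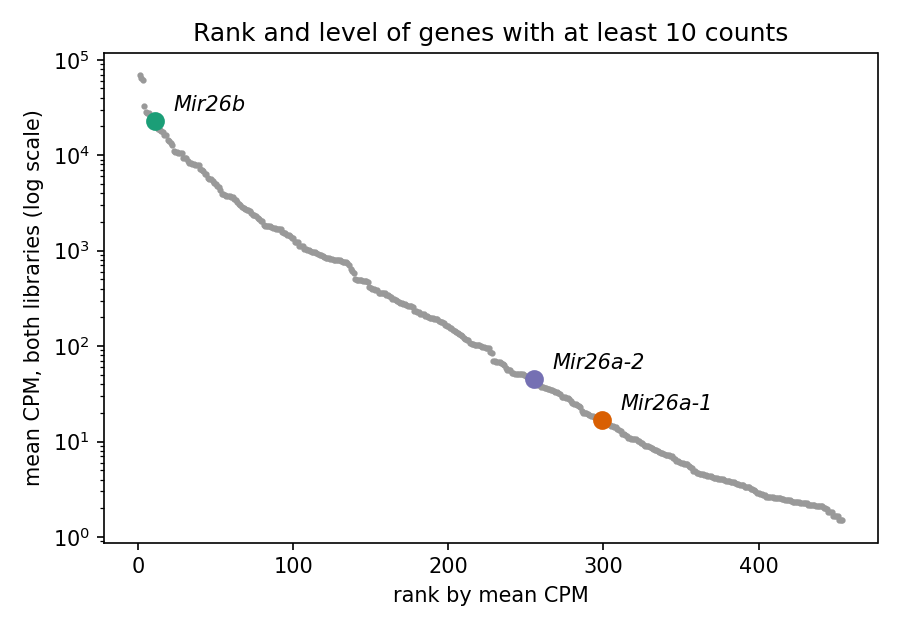
Mean CPM over both libraries on a log axis against rank, for the 454 genes with at least 10 counts summed over the libraries (grey). Mir26b is at rank 11, Mir26a-2 at rank 255 and Mir26a-1 at rank 299.

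The genes nearest to Mir26b in level were Mir20a above it and Mirlet7g below it. Mir20a, a proliferation-linked gene of the Mir17 cluster, had 29234 CPM in replicate 1 against 18331 CPM in replicate 2, so it stood above Mir26b in replicate 1 only and their order was not resolved. Mirlet7g, of the let-7 family known for restraining growth, had 21553 and 20568 CPM in replicates 1 and 2 and was below Mir26b in both. This difference was not tested over the pools. Around Mir26a-2 lay Mir8114 at 45.3 ± 14.99 CPM and Mir672 at 44.2 ± 8.08 CPM, and around Mir26a-1 lay Mir29b-1 at 16.8 ± 4.14 CPM and Mir6538 at 16.6 ± 17.6 CPM (SD, n = 2 each). These genes are named for being nearest in mean level.

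Set beside families with related roles, Mir26b alone held more counts than the other microRNAs listed as restraining the cell cycle. The Mir26 family summed to 23056 and 22323 CPM in replicates 1 and 2, a mean of 2.27 ± 0.0518% of the counts (SD, n = 2). The 8 listed genes that were counted, Mir15a, Mir15b, Mir16-1, Mir16-2, Mir195a, Mir34a, Mir34b and Mir34c, were all detected and summed to 18522 and 18054 CPM in replicates 1 and 2, led by Mir15a at 8326 ± 226 CPM (SD, n = 2). The 9 let-7 genes reached 34143 and 33043 CPM in replicates 1 and 2, of which Mirlet7g made up 62.7%. The 6 Mir30 genes, led by Mir30e, held 59236 CPM in replicate 1 but 31687 CPM in replicate 2. The 4 Mir29 genes, known for repressing collagens, stayed at 846 and 1063 CPM in replicates 1 and 2, led by Mir29a. Each of these lists holds copies of 1 gene, such as Mir16-1 and Mir16-2, whose shared reads can be lost as those of Mir26a are, so the sums can be too low by unknown amounts.

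All 3 Mir26 genes lay on the plus strand inside genes of a single phosphatase family, in the direction of their host. Mir26a-1 lay in intron 5 of 7 of Ctdspl, in transcript Ctdspl-201, and Mir26a-2 in intron 5 of 7 of Ctdsp2, in Ctdsp2-202. Mir26b was in intron 4 of 6 of Ctdsp1, in Ctdsp1-201. The introns differed in size, with 3283 bases in Ctdspl, 1946 in Ctdsp2 and 564 in Ctdsp1. Mir26b began 234 bases after the upstream exon and ended 245 bases before the next. Mir26a-2 ended 241 bases before the next exon, against 1650 bases for Mir26a-1. Mir26a-2 also overlapped an exon of the transcripts Ctdsp2-201 and Ctdsp2-203, which have 3 exons each, by 1 base. The genes themselves span 117546 bases for Ctdspl, 21259 for Ctdsp2 and 5777 for Ctdsp1, so the most abundantly counted member was in the shortest host and the shortest intron. The host transcripts were not measured in this assay.

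Among the 720 counted microRNAs that lie wholly in an intron of at least 1 protein-coding transcript on the same strand, Mir26b ranked 4 by mean, 4 in replicate 1 and 3 in replicate 2. Only the endothelial Mir126a in Egfl7, Mir335 in Mest and Mir30e in Nfyc had higher means. Of these 720 genes 136 were detected, with a median of 197 CPM, against 347 detected of all 1973 counted genes. Mir26a-2 ranked 94 and Mir26a-1 113 by mean, both below that median.

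The low counts of the Mir26a copies were set against other genes with the same ambiguity. Of 858 counted genes with RefSeq mature sequences, 295 were detected. No mature strand that also occurs in the precursor of another gene was found for 775 of the 858. Of those 775, 255 were detected with a median of 358 CPM. Mir26b was in this class and ranked 10 of the 255. Genes with 1 of 2 or more strands found in another precursor numbered 49, with 33 detected at a median of 64.3 CPM. Both Mir26a genes were among these, Mir26a-2 at rank 21 and Mir26a-1 at rank 32 of the 33. In 34 genes every strand was shared, and 7 of them were detected at a median of 95.6 CPM. The medians describe these tables, and how far lost reads set them was not tested.

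A closer match is given by the 31 pairs of copies with RefSeq sequences, named with the suffixes -1 and -2, that share a listed mature strand. Of 32 such pairs, Mirlet7a was left out, because its copies have no listed strand in common. RefSeq lists only 1 strand for Mirlet7a-2, and the precursors share a run of 23 bases. This pair summed to 303 and 170 CPM in replicates 1 and 2, above the Mir26a pair, so the ranks below leave out a higher pair. The Mir26a pair summed to 64.6 and 59.3 CPM in replicates 1 and 2, a mean of 62.0 ± 3.72 CPM (SD, n = 2), and was rank 14 of the 31. The highest sum was that of the Mir92 pair, whose first copy lies in the Mir17 cluster, with 8590 and 8371 CPM in replicates 1 and 2. The 30 other pairs had a median sum of 51.1 CPM, and 9 pairs had 0 counts in both libraries. The Mir26a pair was thus near the middle of the 31 pairs in counted reads only when the 9 pairs without counts are included. Among the 22 pairs with a count, 13 had a higher sum, so it lay below the middle.

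**Figure D4:**
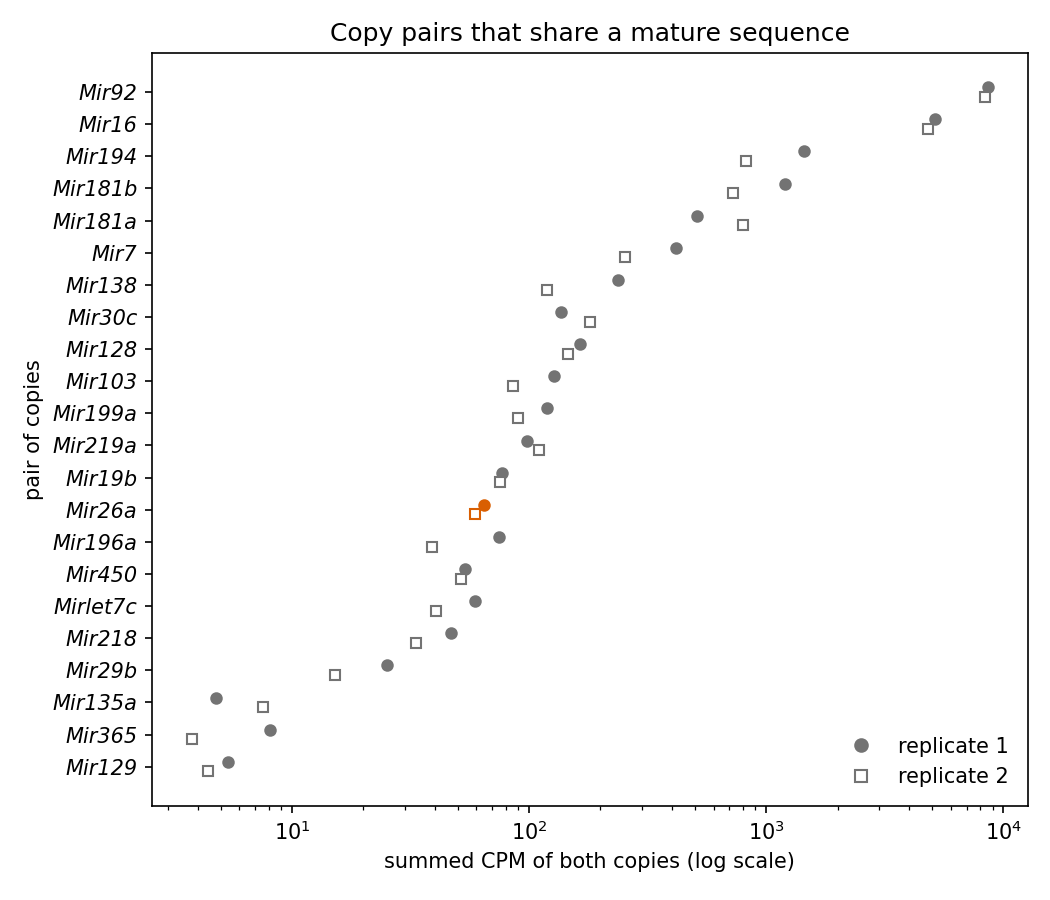
Summed CPM of both copies on a log axis for the 22 pairs that share a mature strand and had a count, in replicate 1 (filled circles) and replicate 2 (open squares). The Mir26a pair, in orange, is at rank 14 with 64.6 and 59.3 CPM, between Mir19b and Mir196a.

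The Mir26 genes differed little between the pools. Counts were scaled by the trimmed mean of M values (TMM), and log2 ratios are of replicate 1 over replicate 2 with 0.5 added to each count. The log2 ratio was -0.015 for Mir26b (counting interval -0.034 to 0.0028), 0.04 for Mir26a-2 (-0.37 to 0.48) and 0.08 for Mir26a-1 (-0.60 to 0.84). After TMM scaling each interval includes 0. None of the 3 genes was at least 2-fold apart, against 71 of the 454 genes with at least 10 summed counts, or 15.6%. Among the 257 genes with at least 200 summed counts, which include Mir26b and Mir26a-2 but not Mir26a-1, 14 genes or 5.45% were at least 2-fold apart. The median absolute log2 ratio was 0.04 over the Mir26 genes, 0.42 over all 454 and 0.35 over the 257 with at least 200 summed counts. Of the 454 genes, 11 lay closer to 0 than Mir26b, 23 closer than Mir26a-2 and 62 closer than Mir26a-1. Among the 30 genes with the highest means, Mirlet7g alone had a smaller absolute ratio than Mir26b. Scaling by total counts turned the log2 ratio of Mir26b to 0.046 and gave 0.10 for Mir26a-2 and 0.14 for Mir26a-1. In that order, 36, 65 and 94 genes were closer to 0, and 2 of the 30 were closer than Mir26b. With this scaling the median absolute log2 ratio was 0.10 over the Mir26 genes and 0.44 over all 454. The value of 0.046 lies above the TMM interval of Mir26b. Its CPM intervals, which rest on total counts, do not overlap between the libraries (22831 to 23152 and 22035 to 22495). For Mir26a-1 the upper end of the interval is 1.78-fold, so a difference up to that size cannot be told from counting error at this depth. Whether 3 genes this close differ from other genes was not tested, and with 1 group the ratios compare libraries and not conditions.

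**Figure D5:**
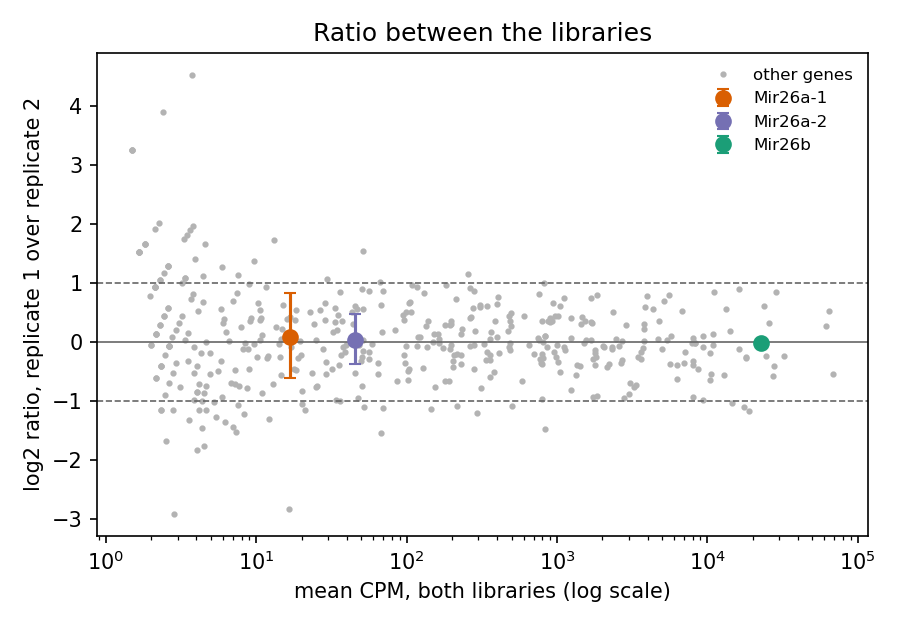
Log2 ratio of replicate 1 over replicate 2 after TMM scaling against mean CPM (log axis) for 454 genes. Coloured points with 95% counting intervals are the Mir26 genes, at -0.015, 0.04 and 0.08; dashed lines mark 2-fold, which 71 genes reach.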

How the data were processed

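MicroRNA-seq of RNA under 30 nucleotides was made from 2 pools of liver. The authors deposited whole-number counts per gene, not normalised, on assembly mm10 with GENCODE M4 annotation, per the deposited description of the files. Aligner, counter and trimming are not given in the sources used here. The 3 columns were read from their values as either strand, strand of the gene and opposite strand. The 4 opening classes that name no gene (73.8% and 71.0% of reads in replicates 1 and 2) stayed out of totals.

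Names and positions came from GENCODE M21, on the same assembly, which matched 1894 of 1973 genes; unmatched genes held 4 counts. TMM factors came from edgeR 4.0.16 and alternative size factors from DESeq2 1.42.0 in R 4.3.3. Other steps used Python 3.11.15, numpy 2.4.6, scipy 1.17.1, pandas 2.3.3 and matplotlib 3.10.9. The ratio and its interval were checked on counts simulated with counting error only (Poisson) and known scaling. That check says nothing about spread between pools, which the interval does not cover. No p-values were computed, since the libraries form 1 group.

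A search of the whole genome was planned and replaced by one of RefSeq precursors and M21 transcripts. Named genes were the members, the nearest gene above and below each in mean CPM, the leading genes of compared and marker lists and the highest copy pair. The genes of the highest intronic means, the genes sharing a seed and the pairs beside Mir26a in the plot were added after their values were seen. So were the undetected liver genes and the Mirlet7a pair. The members and lists were chosen with earlier results of these data known.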

Additional observations from a re-analysis of the deposited data

How the results depend on the processing

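No paired analysis was possible because both libraries belong to a single group. Leaving out each replicate in turn gave 15.8 to 17.6 CPM for Mir26a-1, 43.5 to 46.9 for Mir26a-2, 22264 to 22991 for Mir26b and 22323 to 23056 for the family; shares of the family were 0.0707 to 0.0765% for Mir26a-1, 0.195 to 0.204% for Mir26a-2 and 99.72 to 99.73% for Mir26b. In the order Mir26a-1, Mir26a-2, Mir26b and family, mean CPM was 15.2, 41.1, 20541 and 20597 counting either strand, 4.60, 12.5, 6239 and 6256 over all reads, 9.23, 25.01, 12510 and 12545 over assigned and multimapping reads, and 17.9, 48.6, 24297 and 24363 without Mir126a in the total. These shifts follow from the totals, since no member had a read on the opposite strand. Scaled by total counts, the log2 ratio of Mir26b was 0.046, outside its counting interval. Of the other 11 alternative ratios of the 3 genes, all stayed within the counting interval. The 3 without the filter on low counts could not move, because they kept the same counts and scaling as the main ratios. Genes at least 2-fold apart numbered 71 with DESeq2 size factors, 72 with total counts, 14 of 257 from 200 summed counts and 226 of 724 from 1 summed count; 167 of 454 were at least 1.5-fold apart. Windows of 18, 20 and 24 bases gave 8, 6 and 2 shared windows in each Mir26a precursor and 0 in Mir26b. Depth limits Mir26a-1 most, with 25 counts in replicate 2.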
